A study of Mus musculus with 3 samples.

Results

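The cells described here are the 144 extraembryonic cells of VE cysts with the highest score for parietal endoderm genes relative to yolk sac genes. They were chosen by measured values. Barcodes were kept if they had 4000 genes or more and no more than 10% of their UMIs (unique molecular identifiers, each marking 1 captured mRNA molecule) on mitochondrial genes, which left 625 of 881, and 577 of these held more UMIs of the endoderm markers Gata6, Sox17, Dab2 and Cubn than of the epiblast markers Pou5f1, Sox2, Nanog and Fgf4. Each cell was scored by the mean log2(CPM + 10) of Lama1, Col4a1, Plat, Vim and Thbd minus that of Ttr, Apoa1, Apob, Apom and Afp, where CPM (the usual depth-scaled unit) sets the UMIs of a gene against all UMIs of the cell. The top 25% of the score, 144 of the 577 cells and of 2692 filtered cells in the whole series, are called high-score cells. The middle 50% (289 cells) are called mid-score cells and serve as the comparison, and the bottom 25% (144 cells) are called low-score cells. The 10 score genes are no evidence about these groups, since they define them.

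The series holds 3 single-cell libraries, 1 each of VE cysts, BELAs (bilayered embryo-like aggregates) and Epi cysts, all from iGATA mouse embryonic stem cells of the E14tg2a strain (clone C6 for VE cysts and BELAs), which carry a doxycycline-inducible GATA4, a transcription factor of the primitive endoderm, the source of all extraembryonic endoderm. VE cysts came from cells given 0.5 µg/ml doxycycline for 8 h in 2i + LIF and for 16 h more in N2B27 medium that held FGF4 at 10 ng/ml together with heparin at 1 µg/ml, then re-seeded on gelatin for 3 days in N2B27 with the same FGF4 and heparin. Round cysts were picked by hand, with the aim of leaving out those showing an Epi-like core. BELAs had the 8 h of doxycycline, N2B27 without added FGF4 and a layer of epiblast-like cells inside, and Epi cysts had no doxycycline and grew from matrigel-embedded cells in 2i + LIF and then N2B27. Each library pools many aggregates and there is 1 library per condition, so cells are not replicates and the differences below have no replicate check and no p-value. Intervals are exact 95% intervals and cover counting error only.

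In the mouse embryo, parietal endoderm lies against the trophoblast giant cells and secretes the thick basement membrane known as Reichert's membrane, built from laminin, collagen IV, nidogen and perlecan. It is a migratory, loosely joined cell type, known for thrombomodulin (Thbd), tissue plasminogen activator (Plat), vimentin and the parathyroid hormone receptor. Visceral endoderm of the yolk sac is its epithelial counterpart, which takes up maternal protein through megalin and cubilin and makes apolipoproteins, transthyretin and alpha-fetoprotein.

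The score had no step at its threshold. The last cell inside scored 2.98359 and the first outside 2.98151, and the range over all cells ran from -4.96 to 4.95. Most of the spread came from the yolk sac arm, the mean of the 5 yolk sac genes, with a variance of 1.48 against 0.412 for the parietal arm. Thbd carried 0.198% of the variance of the score and Apob 16.1%. Over the 577 cells, which share 1 library, the score correlated at r = 0.92 with the yolk sac arm, taken as negative, and at r = 0.66 with the parietal arm, while these 2 correlated with each other at r = 0.31, again with the yolk sac arm as negative. The score did not follow depth (r = -0.05 with the log2 of a cell's UMIs). Of the 144 high-score cells, 41 lay in the top 25% of both arms, 41 of the parietal arm only, 59 of the yolk sac arm only and 3 of neither.

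**Figure D1:**
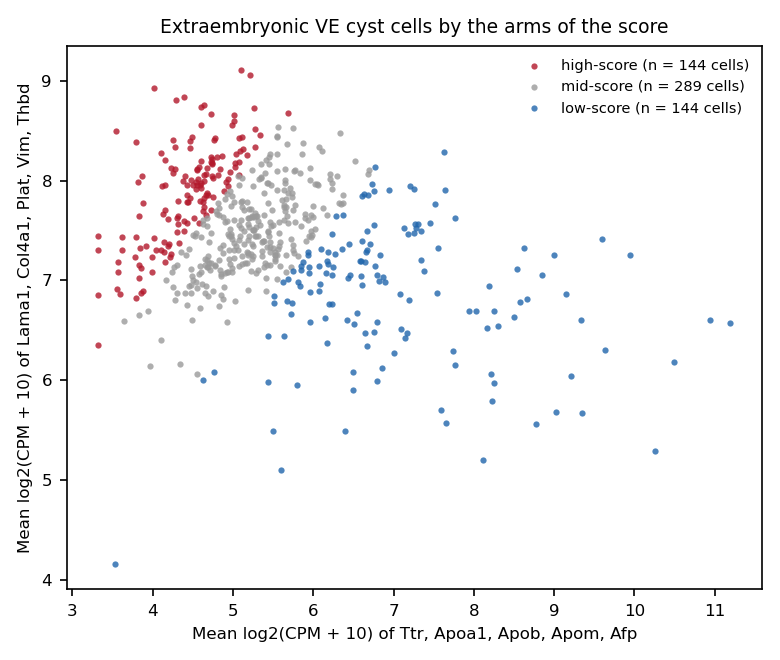
Each point is 1 extraembryonic VE cyst cell, placed by the mean log2(CPM + 10) of the yolk sac genes (horizontal axis) and of the parietal endoderm genes (vertical axis) of the score, and coloured by score group. The 144 high-score cells form the upper left edge of a continuous cloud, with no gap to the 289 mid-score cells, and the 144 low-score cells spread over a wide range of the yolk sac genes.

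The score genes are given as a description of the choice. Lama1, the laminin alpha chain of early basement membranes, stood at 1416 CPM in high-score, 987 CPM in mid-score and 509 CPM in low-score cells. Col4a1 stood at 5955, 5532 and 3811 CPM in high-, mid- and low-score cells, and Plat at 144, 125 and 80.5 CPM. Vim stood at 136, 64.5 and 48.9 CPM in the same order. Thbd, a classical marker of parietal endoderm, was close to absent: 5 UMIs were counted in all high-score cells together (0.578 CPM, 0.188 to 1.35), 1 in mid-score cells and 0 in low-score cells, for which 3 counts would be 0.320 CPM. Ttr, a carrier of thyroid hormone, stood at 434, 1112 and 2303 CPM, so that high-score cells still held it, whereas Apoa1 and Apob were at 0.116 and 0.578 CPM in high-score cells and at 201 and 238 CPM in low-score cells.

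The markers that the score did not use do not match the label of parietal endoderm as a separate cell type. High-score cells held the uptake receptors cubilin, amnionless and megalin at levels close to those of mid-score cells, although 13 of 17 measured genes of apical endocytosis stood below a log2 ratio of 0 and the folate receptor Folr1 stood at 117 CPM in high-score and 218 CPM in mid-score cells. Cubn, cubilin, stood at 1032 CPM in high-score, 995 CPM in mid-score and 1053 CPM in low-score cells, although it was 1 of the 4 markers used to call cells extraembryonic. Amn, the partner of cubilin, stood at 523 CPM (508 to 538) in high-score, 554 CPM in mid-score and 858 CPM in low-score cells, and Lrp2, megalin, at 338, 346 and 399 CPM. The group levels cover unlike cells. Cubn and Amn stood at 877 and 384 CPM in high-score cells placed by the parietal arm only, below mid-score cells. They stood at 932 and 468 CPM with both arms, and at 1206 and 662 CPM with the yolk sac arm only. Apoe, the apolipoprotein shared by most endoderm, stood at 4101 CPM in high-score and 4471 CPM in mid-score cells. Hnf4a, a transcription factor of visceral endoderm, had 101 UMIs in high-score cells (11.7 CPM) against 235 in mid-score cells (13.4 CPM), a ratio of 0.869 (0.681 to 1.10). Hence the cells are called here by their score and not by a cell type.

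At the same time, basement membrane genes outside the score were among the most abundant messages of these cells. Sparc, a collagen-binding matrix protein, stood at 14139 CPM (14060 to 14218) in high-score, 13057 CPM in mid-score and 8448 CPM in low-score cells. Per cell it ranged from 6332 to 29136 CPM with a median of 13834 CPM in high-score cells, and from 2463 to 28590 CPM with a median of 12866 CPM in mid-score cells, so the groups overlapped almost fully. Col4a2, the partner chain of Col4a1, stood at 2628, 2467 and 1736 CPM in high-, mid- and low-score cells. Serpinh1, the chaperone of collagen folding, stood at 2755 CPM in high-score and 2590.0 CPM in mid-score cells. These genes thus differed by 1.06- to 1.08-fold between high- and mid-score cells.

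Across all genes, few separated high-score from mid-score cells. A gene was compared where it reached 5 CPM over all 577 cells, and was counted as higher or lower where the ratio of the summed levels, with 5 CPM added to each, was at least 1.5-fold. Of 9515 genes outside the score, 13 were higher (0.137%) and 47 lower (0.494%) in high-score cells, and the median log2 ratio over all genes was -0.02. Depth differed little between the groups, at a median of 55298 UMIs per cell in high-score, 56469 in mid-score and 62211.5 in low-score cells, with a median of 5.47%, 5.45% and 5.40% mitochondrial UMIs. Scrublet marked 2 high-score cells and 1 mid-score cell as doublets, and they were kept. VE cysts shared 1 barcode with Epi cysts before the filter and 0 after it.

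Of 14 parietal endoderm genes outside the score, 0 passed 1.5-fold in either direction, 13 stood above a log2 ratio of 0, and the median was 0.18, against -0.02 over all genes. Other lists had medians of this size, such as the genes of the G2 and M phases (0.20, 14 of 14 above 0) and the embryonic pluripotency genes (0.20, 5 of 6 above 0). With the cells ranked by the parietal arm alone, the parietal endoderm, G2/M and pluripotency medians were 0.20, 0.014 and -0.36. Ranked by the yolk sac arm alone, they were -0.014, 0.27 and 0.63. The list of parietal endoderm genes, like all others used here, was drawn up with earlier results of these data known. Genes of the laminin network stood at its upper end, together with Sox7. Nid1, nidogen, which bridges laminin to collagen IV, stood at 170.4 CPM (162 to 179) in high-score, 117 CPM (112 to 122) in mid-score and 50.2 CPM in low-score cells, 1.45-fold higher (1.36 to 1.56) than in mid-score cells. The middle 50% of high-score cells ran from 87.8 to 223 CPM, against 61.7 to 161 CPM in mid-score cells, and both groups had cells at 0. Lamc1, the laminin gamma chain, stood at 1032, 774 and 387 CPM in high-, mid- and low-score cells (1.33-fold, 1.30 to 1.37, high over mid), and Lamb1, the beta chain, at 1359, 1097 and 621 CPM (1.24-fold, 1.21 to 1.27). Sox7, a transcription factor of the endoderm, stood at 41.1 CPM in high-score and 27.5 CPM in mid-score cells (1.49-fold, 1.30 to 1.71).

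The stretches before the start of Lamb1 and Nid1, 2 basement membrane genes that went with the score, and of Apoa2, an apolipoprotein gene at the other end, are shown for comparison (RefSeq, GRCm38.p6). Each is read 5′ to 3′ on the strand of its gene and ends before the first annotated exon. Capitals mark the GC box, GGGCGG on either strand.
Lamb1, chr12:31265043-31265233, plus strand: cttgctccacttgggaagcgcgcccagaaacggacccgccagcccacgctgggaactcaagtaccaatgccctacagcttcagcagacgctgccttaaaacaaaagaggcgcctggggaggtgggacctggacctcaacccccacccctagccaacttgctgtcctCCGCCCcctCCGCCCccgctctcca
Nid1, chr13:13437352-13437550, plus strand: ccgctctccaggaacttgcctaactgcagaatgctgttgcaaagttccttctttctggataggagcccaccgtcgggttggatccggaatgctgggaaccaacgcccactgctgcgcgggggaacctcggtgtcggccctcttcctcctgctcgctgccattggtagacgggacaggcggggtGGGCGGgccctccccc
Apoa2, chr1:171224804-171225053, plus strand: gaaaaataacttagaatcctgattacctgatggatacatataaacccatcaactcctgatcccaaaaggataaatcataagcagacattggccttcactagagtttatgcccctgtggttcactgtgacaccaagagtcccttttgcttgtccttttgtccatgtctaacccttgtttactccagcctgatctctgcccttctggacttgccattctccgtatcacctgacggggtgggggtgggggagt
The GC box occurred at 2 places before Lamb1, at 1 place before Nid1 and at 0 before Apoa2. Of all 32851 RefSeq upstream windows, it is found in 23.1% of those of 191 bases, the length shown for Lamb1, in 24.4% of those of 199 bases and in 32.7% of those of 250 bases. The GATA motif AGATAA, on either strand, occurred in 0 of the 3 stretches and occurs in 10.0% of all windows of 250 bases. The content of G and C was 63.9% before Lamb1, 63.8% before Nid1 and 46.4% before Apoa2. A match describes the letters only.

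Most other members of the list differed less. Stra6, a receptor for retinol-binding protein, was at a log2 ratio of 0.29. Pth1r, the receptor for parathyroid hormone and its related peptide, which in the embryo acts on parietal endoderm, stood at 889, 778 and 457 CPM in high-, mid- and low-score cells. Srgn, a secretory proteoglycan, stood at 1918 CPM in high-score and 1699 CPM in mid-score cells, and Gata4 at 137 and 133 CPM, a ratio of 1.03 (0.964 to 1.11). Fst, an activin inhibitor, stood at 71.7 CPM in high-score and 61.9 CPM in mid-score cells, but 13.2% of its UMIs in high-score cells came from 1 cell. Snai1, a transcription factor of the transition to a migratory state, had 76 UMIs in high-score cells (8.79 CPM) against 152 in mid-score cells (8.70 CPM). Krt19, a keratin of parietal endoderm and of other epithelia, was the member below 0, at 67.2 CPM in high-score and 86.7 CPM in mid-score cells.

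The laminin genes and the collagen genes did not follow the score in the same way. When the 577 cells were put in 10 bins of the score, from the lowest to the highest, Sparc stood at 6406 CPM in bin 1, 12962 CPM in bin 4, 13535 CPM in bin 7 and 14780 CPM in bin 10. Col4a2 likewise stood at 1289 CPM in bin 1, 2487 CPM in bin 4, 2511 CPM in bin 7 and 2703 CPM in bin 10, so that most of the difference lay below bin 4. Lamc1 stood at 197 CPM in bin 1, 717 CPM in bin 4, 819 CPM in bin 7 and 1146 CPM in bin 10. Nid1 stood at 28.4, 113, 118 and 190.0 CPM in the same bins. Thus the laminin and nidogen genes still differed between the upper bins, where the collagen genes and Sparc were nearly level. The partner chains of score genes are not independent of the bins, however. Lama1 carried 12.1% of the variance of the score and Col4a1 4.62%. In high-score cells Lamb1 and Lamc1 correlated with Lama1 at r = 0.74 and 0.75, and Col4a2 with Col4a1 at r = 0.88. The part of these weights in the contrast was not tested.

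**Figure D2:**
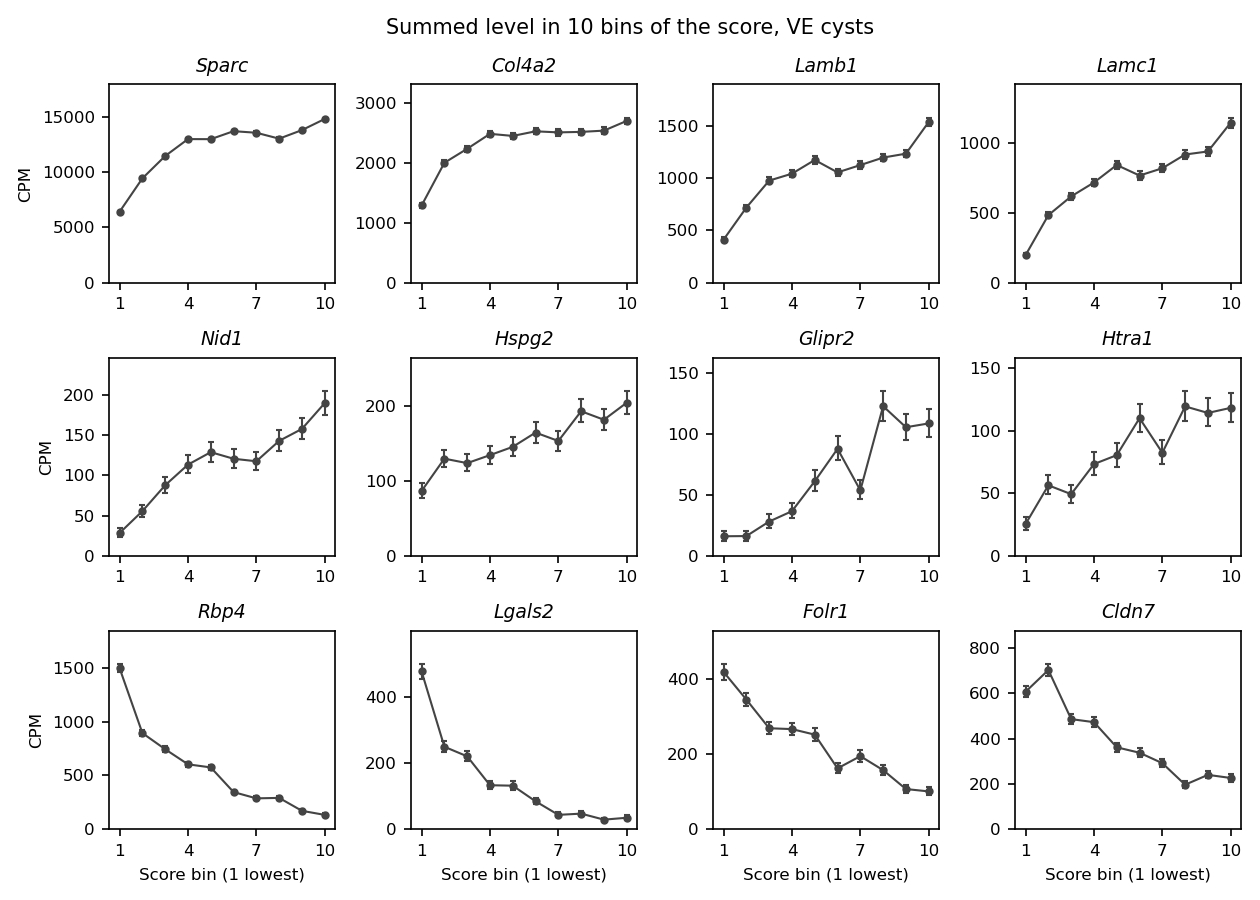
Summed level in CPM (vertical axes, from 0) of 12 genes outside the score in 10 bins of the score (horizontal axes, bin 1 lowest), in VE cysts. Bars are exact 95% Poisson intervals. Sparc and Col4a2 level off from bin 4, Lamc1 and Nid1 reach 1146 and 190.0 CPM in bin 10, and Rbp4 and Lgals2 decline along the score to 132 and 34.2 CPM.

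Within the 144 high-score cells, the chains of 1 protein varied together from cell to cell. The log levels of Lamb1 and Lamc1 correlated at r = 0.75 in high-score and 0.68 in mid-score cells. Nid1 correlated with Lamb1 at 0.28 in high-score and 0.41 in mid-score cells, with Lamc1 at 0.20 and 0.42, and with Col4a2 at 0.36 and 0.32. Hspg2, the gene of perlecan, correlated with Lamc1 at 0.11 in high-score and 0.40 in mid-score cells, and with Col4a2 at -0.18 and 0.02. These are descriptions over cells of 1 library, which share depth differences.

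Basement membrane components as a whole stood on both sides of a log2 ratio of 0. Of 15 measured members of the list, 0 passed 1.5-fold, 7 stood above 0 and 8 below, with a median log2 ratio of -0.01. Hspg2 stood at 193 CPM in high-score and 150.1 CPM in mid-score cells (1.29-fold, 1.21 to 1.37). In contrast, Nid2, the second nidogen, stood at 131 CPM in high-score and 172 CPM in mid-score cells, a ratio of 0.758 (0.708 to 0.812), and Fn1, fibronectin, at 102 and 129 CPM, a ratio of 0.791 (0.731 to 0.855). Of 19 measured genes of collagen folding and secretion, 0 passed 1.5-fold and the median was 0.08. Their highest ratio belonged to P4ha2, a collagen prolyl hydroxylase, at 182 CPM in high-score and 139.5 CPM in mid-score cells.

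The yolk sac genes showed larger ratios than the parietal endoderm genes, in groups set mostly by the yolk sac arm (variance of 1.48 against 0.412). With the cells ranked by the parietal arm alone, the list medians were -0.22 for yolk sac and 0.20 for parietal endoderm genes. The size of this difference thus depends on the rule. Of 16 measured yolk sac and extraembryonic visceral endoderm genes outside the score, 6 were at least 1.5-fold lower in high-score cells and 0 higher, with a median log2 ratio of -0.42 over the 16, where 0.494% of all genes were lower. The 6 were Rbp4, Apoa2, Apoc2, Soat2, Slc2a2 and Apoa4. Rbp4, the plasma carrier of retinol, stood at 169 CPM (161 to 178) in high-score, 469.5 CPM (459 to 479.8) in mid-score and 1120 CPM in low-score cells, 2.77-fold lower (2.62 to 2.93) than in mid-score cells. Per cell, the middle 50% of high-score cells ran from 16.9 to 187 CPM and that of mid-score cells from 51.9 to 696 CPM, so the groups overlapped.

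Apoa2, an apolipoprotein of high-density lipoprotein, had 14 UMIs in high-score cells (1.62 CPM) against 208 in mid-score cells (11.9 CPM) and 1789 in low-score cells (191 CPM). Apoc2, the activator of lipoprotein lipase, stood at 1.74, 7.10 and 113 CPM in high-, mid- and low-score cells, and Soat2, which esterifies cholesterol for lipoprotein export, at 16.7, 32.8 and 84.0 CPM. Slc2a2, a glucose transporter, stood at 1.74, 6.24 and 22.1 CPM, and Apoa4 was at a log2 ratio of -0.72 (high over mid). At a fixed 30000 UMIs per cell, 5.71% of high-score cells and 19.5% of mid-score cells had a UMI of Apoa2, against 0.161% of Epi cyst cells, which should lack it. Without thinning the shares were 9.03%, 28.4% and 0.611%. The list was not uniform, since Tfpi, an inhibitor of coagulation, stood at 874 CPM in high-score and 891 CPM in mid-score cells and Apoc1 was at a log2 ratio of 0.14.

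**Figure D3:**
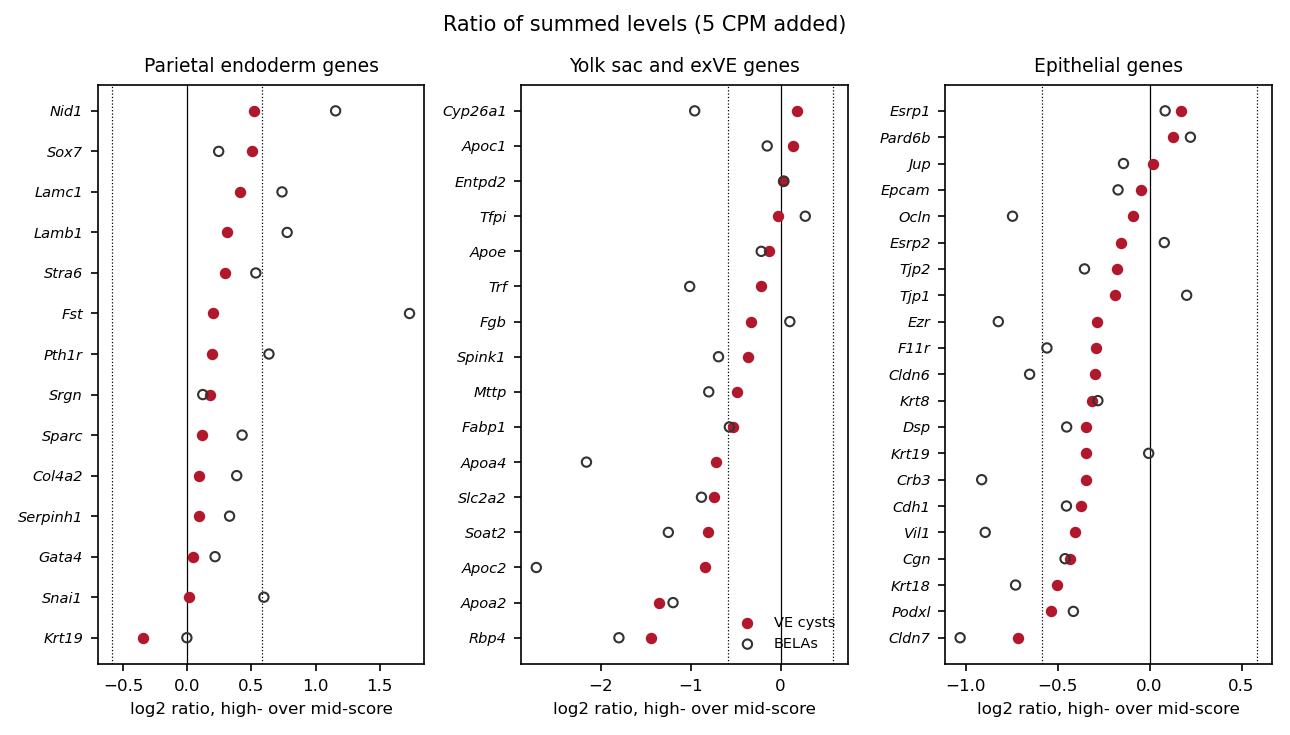
log2 ratio of high- over mid-score cells (horizontal axes, 5 CPM added to each level) for the measured genes of 3 lists, in VE cysts (filled red points) and in BELAs under the same rule (open points). Dotted lines mark 1.5-fold. In VE cysts the parietal endoderm genes lie between -0.34 and 0.52, inside the dotted lines, and 6 of the yolk sac genes and 1 of the epithelial genes lie below the lower line.

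Genes of epithelial junctions and polarity stood lower as a list. Of 21 measured, 18 stood below 0 with a median of -0.29, although only Cldn7 passed 1.5-fold and 0 were higher. Cldn7, a claudin of tight and basolateral junctions, stood at 221 CPM (211 to 231) in high-score, 365 CPM (356 to 374) in mid-score and 631 CPM in low-score cells. Podxl, the apical sialomucin podocalyxin, stood at 66.3, 98.4 and 197 CPM, Krt18 at 166, 237 and 530.1 CPM, and Cdh1, E-cadherin, at 51.7, 68.4 and 96.0 CPM in high-, mid- and low-score cells. Epcam differed less, at a log2 ratio of -0.05. Vim was in the score, and outside it the mesenchymal list had no member past the fold: of 7 measured genes, 0 passed 1.5-fold and the median was 0.01. Snai2, Cdh11, Zeb2 and Tgfbi stood under 0.5 CPM in high-score cells, and Cdh2, Acta2, S100a4 and Mmp2 had 0 UMIs there.

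Among the genes of endocytosis and lysosomes, 1 of 17 measured passed 1.5-fold, and the median was -0.10. It was Folr1, a folate receptor, at 117 CPM (110.1 to 125) in high-score, 218 CPM (211 to 225) in mid-score and 363 CPM in low-score cells. Ctsl, a lysosomal protease abundant in yolk sac endoderm, stood at 5356 CPM in high-score and 6629 CPM in mid-score cells, and Dab2, an endocytic adaptor used in the choice of extraembryonic cells, at 1336 and 1508 CPM.

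The remaining genes with the lowest ratios had varied roles. Lgals2, a galectin of absorptive epithelia, had the lowest log2 ratio of the genes considered for naming, -1.54, at 33.3 CPM (29.6 to 37.4) in high-score, 106 CPM (102 to 111) in mid-score and 336 CPM in low-score cells. Selenop, a secreted selenium carrier, stood at 8.21, 23.2 and 148 CPM, Muc13, a membrane mucin, at 5.67, 14.4 and 57.6 CPM, and Abcg2, an efflux transporter, at 46.9, 86.5 and 139 CPM in high-, mid- and low-score cells. Ddc, an amino acid decarboxylase, stood at 6.02 CPM in high-score and 14.1 CPM in mid-score cells, and Nrk, a kinase of extraembryonic tissue, at 7.64 and 18.6 CPM. Nepn, a small leucine-rich proteoglycan, stood at 19.1 CPM in high-score, 40.2 CPM in mid-score and 36.2 CPM in low-score cells, and Sox4, a transcription factor, at 20.5, 38.6 and 59.8 CPM.

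Imprinted genes, several of which are abundant in yolk sac, also stood lower. Of 12 measured, 4 were at least 1.5-fold lower (0.494% of all genes were), 0 higher, and the median was -0.36. Peg10 stood at 14.1, 32.0 and 102 CPM, Dlk1, a Notch-related membrane protein, at 33.2, 59.8 and 179 CPM, and Cdkn1c, an inhibitor of the cell cycle, at 20.2, 34.6 and 102 CPM in high-, mid- and low-score cells. H19, a non-coding RNA, stood at 15.8, 35.6 and 20.0 CPM and was detected in few cells, 13.9% of high-score and 21.1% of mid-score cells before thinning and 12.1% and 18.0% at 30000 UMIs. With the cells ranked by the parietal arm alone, its log2 ratio was 0.90, the reverse of the -0.96 of the full score. Retinoid genes counted 2 of 9 measured as lower, beside 0.494% of all genes, namely Rbp4, already counted among the yolk sac genes, and Dhrs3, an enzyme that reduces retinal, at 4.86 CPM in high-score and 10.5 CPM in mid-score cells.

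The genes highest in the cells had modest levels. Glipr2, a membrane-associated protein of the Golgi, stood at 109.7 CPM (103 to 117) in high-score, 62.8 CPM (59.1 to 66.6) in mid-score and 16.8 CPM in low-score cells, 1.75-fold higher (1.60 to 1.91) than in mid-score cells. Its median per cell was 65.1 CPM in high-score and 26.5 CPM in mid-score cells. Fgf3, a growth factor that parietal endoderm is known to express, stood at 27.4, 15.6 and 5.44 CPM in high-, mid- and low-score cells (1.76-fold, 1.47 to 2.10, high over mid). It did not go with the parietal arm. Among high-score cells it stood at 13.0 CPM with the parietal arm only, 27.9 CPM with both arms and 37.6 CPM with the yolk sac arm only. Asns, the asparagine synthetase, stood at 85.6, 50.9 and 31.1 CPM, and Slc16a3, a lactate transporter, at 34.4, 19.9 and 16.4 CPM.

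Ephb2, an ephrin receptor, stood at 19.2 CPM in high-score and 9.84 CPM in mid-score cells, and Jam3, a junctional adhesion molecule, at 21.5 and 10.5 CPM. Fam151a stood at 26.8 CPM in high-score and 14.1 CPM in mid-score cells, Ly6k at 22.6 and 12.4 CPM and Rbmxl2 at 21.1 and 11.3 CPM. Rpl39l, a paralogue of a ribosomal protein gene, had the highest log2 ratio, 0.98, at 21.5 CPM in high-score and 8.41 CPM in mid-score cells. Its UMIs lay in few cells, 14.6% of high-score and 6.92% of mid-score cells (14.3% and 6.90% at 30000 UMIs), and 14.0% of the UMIs in high-score cells came from 1 cell. Htra1, a secreted protease that acts on matrix proteins, stood at 122, 83.4 and 41.6 CPM in high-, mid- and low-score cells. Prss35, Pcdh19 and Rhox13 were at log2 ratios of 0.58, 0.53 and 0.54, under 1.5-fold.

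Few members of other pathways passed the fold. Of the transcription factors of endoderm, 0 of 17 measured passed 1.5-fold (median 0.07). Gata6, a marker used in the choice of extraembryonic cells, stood at 383 CPM in high-score, 325 CPM in mid-score and 169 CPM in low-score cells, and Cited1 at 766, 941 and 932 CPM. All 14 genes of the G2 and M phases stood above 0 with a median of 0.20, but 0 passed 1.5-fold, and S phase genes had a median of -0.05 over 12. The G2 and M median was 0.014 with the parietal arm alone and 0.27 with the yolk sac arm alone. Ccna2, cyclin A, stood at 145 CPM in high-score and 112 CPM in mid-score cells. Medians were 0.02 for the plasminogen system and proteases, 0.01 for the cAMP genes around Pth1r, -0.14 for matrix receptors, -0.07 for BMP, 0.04 for beta-catenin, -0.16 for FGF and ERK and -0.09 for YAP targets, with 0 members past 1.5-fold in each list. Among the cyclins and inhibitors, Cdkn1c alone passed it (1 of 10). The medians were 0.01 for hypoxia and glycolysis, -0.0023 for the unfolded protein response and 0.06 for immediate early genes, again with 0 past 1.5-fold, and 0 of 3 measured AVE genes passed it, with a median of 0.31 and 3 of 3 above 0. The AVE list held 12 genes, and its markers Cer1 and Otx2 had 0 UMIs in high-score cells. The AVE median was -0.195 with the parietal arm alone and 0.43 with the yolk sac arm alone.

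Markers of most other cell types were low, but the pluripotency list was not. In high-score cells, 5 of 14 trophoblast genes had 0 UMIs and the list summed to 5.78 CPM, against 7.44 CPM in mid-score cells. The fibroblast list summed to 232 CPM in high-score and 202 CPM in mid-score cells, almost all of it Pdgfra (211 and 184 CPM), which primitive endoderm also expresses, and Col1a1, Col3a1, Dcn, Lum and Postn had 0 UMIs in high-score cells. The endothelial and blood list summed to 55.2 and 44.5 CPM with Ptprc, Emcn and Cldn5 at 0, the mesoderm list to 9.83 and 7.21 CPM with T and Mixl1 at 0, and the neural list to 5.32 and 6.24 CPM with Sox1 at 0. The pluripotency list summed to 1278 CPM in high-score, 1029 CPM in mid-score and 739.9 CPM in low-score cells. Pou5f1 stood at 28.8, 18.9 and 5.12 CPM, and at 601 CPM in Epi cysts, while Sox2 stood at 0.810 CPM in high-score cells and at 76.3 CPM in Epi cysts. Both are epiblast markers used in the choice of extraembryonic cells, and the Epi cyst cells were kept by the reverse rule. The gap of these markers to Epi cysts is therefore partly set by the choice. Dppa5a made up most of the list, at 956, 719 and 412 CPM in high-, mid- and low-score cells, above the 119.9 CPM of Epi cysts. Among high-score cells, Pou5f1 and Dppa5a stood highest in those of the yolk sac arm only, at 51.6 and 1427 CPM. The part of the pluripotency RNA in the other differences was not tested.

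The high-score cells differed among themselves according to the arm of the score that placed them. The 41 cells placed by the parietal arm only held Vim at 250 CPM and Ttr at 901 CPM, while the 59 cells placed by the yolk sac arm only held Vim at 21.1 CPM and Ttr at 157 CPM, as these genes set the split. Outside the score, Col4a2 stood at 3036 CPM (2968 to 3106) in cells of the parietal arm only, 2790.0 CPM in cells of both arms and 2257 CPM (2209 to 2306) in cells of the yolk sac arm only. Fst stood at 112, 64.1 and 48.9 CPM in the same order, and Sfrp5, a secreted Wnt inhibitor, at 129, 65.3 and 16.5 CPM. For Fst, 1 cell gave 29.8% of the UMIs with the parietal arm only, and 1 cell gave 29.8% with the yolk sac arm only. The medians of Fst per cell were 57.1, 35.2 and 0 CPM in the same order. Rbp4 stood at 288 CPM in cells of the parietal arm only and 68.1 CPM in cells of the yolk sac arm only. Col4a2 and Rbp4 are not independent of the split, as they followed genes that set it. In high-score cells Col4a2 correlated with Col4a1 at r = 0.88, and Rbp4 with Ttr at r = 0.62.

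The reverse held for another set of genes. Htra1 stood at 38.7 CPM (31.3 to 47.3) in cells of the parietal arm only, 76.5 CPM in cells of both arms and 209 CPM (195 to 224) in cells of the yolk sac arm only, with medians per cell of 20.9, 33.0 and 115 CPM. Glipr2 stood at 53.3, 91.1 and 160 CPM, Hspg2 at 123, 184 and 240 CPM, Amn at 384, 468 and 662 CPM and Dppa5a at 472, 745 and 1427 CPM in the same order. Pou5f1 stood at 10.2, 12.5 and 51.6 CPM and Utf1 at 1.22, 3.44 and 14.9 CPM. These 3 pluripotency genes thus stood highest in cells of the yolk sac arm only. Lamc1 and Nid1 stood highest in cells of both arms, at 1130 and 205 CPM, against 1112 and 171 CPM with the parietal arm only and 930.4 and 148 CPM with the yolk sac arm only, and for each gene the intervals overlapped between both arms and the parietal arm only. Median depth was 54630, 53373 and 58001 UMIs per cell in the 3 sets, which were formed after the values were seen.

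**Figure D4:**
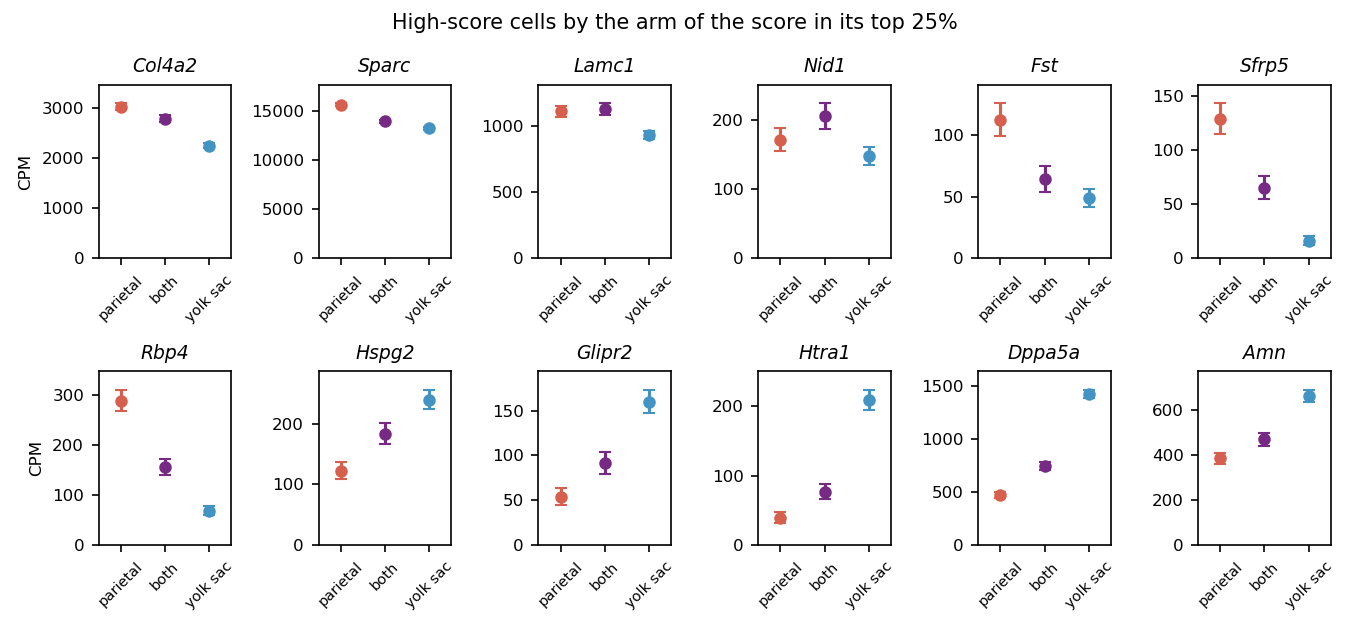
Summed level in CPM (vertical axes, from 0) of 12 genes outside the score in high-score cells placed by the parietal arm only (41 cells), by both arms (41) and by the yolk sac arm only (59), with exact 95% Poisson intervals. Col4a2, Fst, Sfrp5 and Rbp4 stand highest with the parietal arm, Hspg2, Glipr2, Htra1, Dppa5a and Amn with the yolk sac arm, while the intervals of Lamc1 and of Nid1 overlap between the parietal arm only and both arms. For Fst, 1 cell gives 29.8% of the UMIs with the parietal arm only, and 1 cell gives 29.8% with the yolk sac arm only.

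All 577 cells were also ranked by 1 arm at a time. This used the same library, score genes and ranks that formed the sets above, so it is no separate support for them. The parietal endoderm genes outside the score had a median log2 ratio of 0.20 with the parietal arm alone and -0.014 with the yolk sac arm alone. Htra1 was at -0.70 with the parietal arm and 1.21 with the yolk sac arm, and Glipr2 at -0.056 and 1.46. Nid1 and Lamc1 were positive with both, at 0.34 and 0.37 with the parietal arm and at 0.24 and 0.13 with the yolk sac arm. Lower Rbp4 also went with both, at -0.23 and -2.35.

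The same rule was applied to the 542 extraembryonic cells of BELAs, a library that the choice of the cells did not use. It gave wider differences, with 115 of 9108 genes (1.26%) higher and 209 (2.29%) lower in the 136 high-score over the 270 mid-score BELA cells. The groups were cut within each library, and their scores lay further apart in BELAs. The median score was 2.59 in high-score and 0.362 in mid-score BELA cells, against 3.38 and 2.26 in VE cysts. The sizes of the ratios are therefore not compared at a like contrast in score. The BELA groups were cut by the same 10 score genes, so genes that vary with these are not independent of the groups. Median depth was 79514 UMIs in high-score and 95118 in mid-score BELA cells. Epi markers made up as much as 47.2% and 37.3% of the marker UMIs of a cell, and doublets were not scored in BELAs. Of the 13 genes called higher and the 47 called lower in VE cysts, 8 and 37 were also compared in BELAs. Of these, 2 of the 8 higher and 26 of the 37 lower ones were called in the same direction there, which is 1.74% and 12.4% of the BELA calls, and 0 in the opposite one. Parietal endoderm genes outside the score had a median of 0.43 in BELAs, with 6 of 13 past 1.5-fold, and yolk sac genes one of -0.84, with 10 of 16 lower. Nid1 was at a log2 ratio of 0.52 in VE cysts and 1.16 in BELAs, Lamc1 at 0.41 and 0.74, Rbp4 at -1.45 and -1.80, and Cldn7 at -0.71 and -1.03. Cubn was at 0.05 in VE cysts and -0.55 in BELAs, and Amn at -0.08 and -0.57.

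The levels of the libraries were offset from each other. Sparc stood at 14139, 13057 and 8448 CPM in high-, mid- and low-score cells of VE cysts, and at 7237, 5382 and 3291 CPM in those of BELAs, so that even the low-score VE cyst cells held more than the high-score BELA cells. Col4a2 stood at 2628, 2467 and 1736 CPM in VE cysts and at 1035, 791 and 446 CPM in BELAs. Lamc1 and Nid1 overlapped between the libraries, as Lamc1 stood at 387 CPM in low-score VE cyst cells and at 579 CPM in high-score BELA cells. With 1 library each, the culture condition and the library cannot be told apart.

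**Figure D5:**
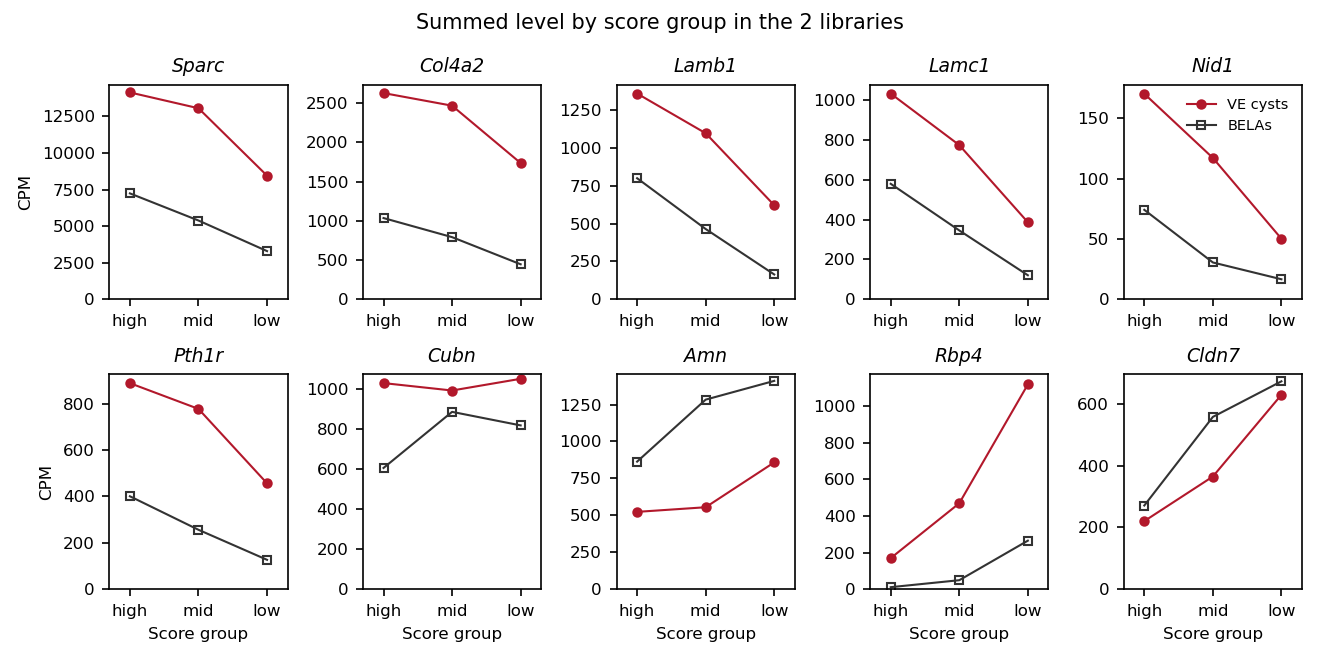
Summed level in CPM (vertical axes, from 0) of 10 genes outside the score in high-, mid- and low-score cells (horizontal axes) of VE cysts (filled red points) and BELAs (open squares), with no error drawn and lines only joining the groups. Sparc and Col4a2 lie higher in all VE cyst groups than in any BELA group, and Cubn is nearly level in VE cysts, at 1032, 995 and 1053 CPM.

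Single cells can set a value in such sums. The gene with the lowest log2 ratio of all, Gm8994, was at -2.31 because 1 mid-score cell held 400 of its 412 UMIs in the 577 cells. Without that cell, an alternative chosen after seeing the data, 14 genes were higher and 40 lower in high-score cells.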

How the data were processed

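Cells of the 3 libraries were profiled with 10x Genomics 3′ v3.1 chemistry. The authors counted UMIs per gene and barcode with Cell Ranger 4.0.0 on mm10 and deposited raw UMI counts, which were used as deposited for 32285 genes. Depth over the 625 filtered VE cyst cells was 39793263 UMIs, with a median of 58554 per cell. A gene's level in a group is its summed count relative to the summed UMIs (CPM), with exact 95% Poisson intervals, and ratios carry exact conditional binomial intervals. All cover counting error only. Shares of cells with a UMI were compared after thinning each cell to 30000 UMIs, which left out 4 high-score and 28 mid-score cells. With 1 library per group no test was made. For 40 repeated gene symbols, the more abundant ID was used. Doublets of VE cysts were scored with Scrublet in scanpy 1.11.5 and left out only as an alternative. Python 3.11.15, numpy 2.4.6, scipy 1.17.1 and pandas 2.3.3 were used. The calculation of ratios was tested on simulated data.

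The text names the score genes, the 15 genes with the highest and the 15 with the lowest log2 ratio among genes of at least 10 CPM (names starting Gm or ending Rik left out), list members past 1.5-fold, up to 3 abundant members of other lists, and defining markers at or near 0. Other genes, among them those that differ between the arms and Gm8994, were named after their values were seen. The members, lists and rules were chosen with earlier results of these data known. Alternatives changed the CPM added, the filters, the score, the comparison cells, depth and the denominator. Promoter windows came from RefSeq, and bases that overlap a GENCODE exon were left out.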

Additional observations from a re-analysis of the deposited data

How the results depend on the processing

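No paired analysis was possible because each group is 1 library without replicate numbers. The values below are, in this order, the genes higher in high-score cells (13), the genes lower (47), the median log2 ratio of parietal endoderm genes (0.18) and that of yolk sac genes (-0.42). Values not given moved by less than 1.5 times for counts, or stayed within counting error for medians.

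With 1 CPM added there were 33 higher and 131 lower genes, and the yolk sac median was -0.70. With 20 CPM added they were 1, 12 and -0.29. Without a filter beyond 1 UMI the yolk sac median was -0.22, and with at least 20 CPM required there were 3 higher and 28 lower genes and a yolk sac median of -0.51. Thinning each cell to 30000 UMIs gave 28 higher and 89 lower genes and a parietal endoderm median of 0.14, which was also 0.14 for the mean of single-cell CPM. Leaving mitochondrial, ribosomal protein, score, Sparc and Col4a2 UMIs out of the total gave 21 higher genes.

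Against low-score cells as the comparison there were 226 higher and 415 lower genes, with medians of 0.71 and -1.79. The top 12.5% of the score gave 36, 96 and a parietal endoderm median of 0.22. The parietal arm alone gave 14 lower genes and a yolk sac median of -0.22, and turned 8 named genes round: Dhrs3 (0.10), Fam151a (-0.12), Glipr2 (-0.056), H19 (0.90), Jam3 (-0.16), Nepn (0.29), Rbmxl2 (-0.18) and Sox4 (0.12). The yolk sac arm alone gave 48 higher and 107 lower genes and a parietal endoderm median of -0.014, which is reversed in sign. At 2-fold there were 0 higher and 8 lower genes. The cause of these changes was not tested. Of 31 named genes past 1.5-fold, 2 stayed past it with the parietal arm alone (21 kept their sign under it, 8 reversed), 28 with the yolk sac arm alone, 23 with the score from thinned cells, 10 with 20 CPM added and 31 without doublets.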

Other observations

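Meg3, a maternally expressed non-coding RNA, was detected in 4.17% of high-score cells and 6.92% of mid-score cells, and 40.1% of its 329 UMIs in high-score cells lay in 1 cell. Low-score cells held 2 UMIs (0.213 CPM), against 38.1 CPM in high-score and 46.6 CPM in mid-score cells. Anxa2, a membrane-binding protein, stood at 84.0 CPM in high-score, 59.5 CPM in mid-score and 60.8 CPM in low-score cells.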
